A study of Mus musculus with 7 samples.

Results

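The 9 genes described here, Marco, Chil3, Fabp4, Pparg, Siglecf, Krt79, Atp6v0d2, Ear1 and Ear2, are known markers of resident alveolar macrophages. They were taken as a list of symbols and matched to the gene identifiers of the count table through GENCODE vM21. All 9 were among the 55401 genes of the table, and all 9 were among the 17465 genes that passed the filter on low counts and were tested.

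The RNA libraries were made from right lung lobes of male C57BL/6 mice, 6 to 8 weeks old and weighing 20 to 25 g. All mice had received 1 instillation of bleomycin, a drug toxic to lung cells whose instillation is a common mouse model of pulmonary fibrosis. The 3 mice of the BLM+HBO group breathed hyperbaric oxygen (HBO), oxygen above atmospheric pressure, at a pressure of 2.5 ATA for 90 min on each of 14 days from day 7, and the 4 mice of the BLM group did not. Lungs of both groups were taken on day 21, with 1 library per mouse. The labels place the BLM mice in the chamber without pressure, the methods leave them untreated, and the files do not settle which was done. According to the methods, mice that lost too little weight after bleomycin were left out of the study, and no lung without bleomycin is in the series, so each value below compares injured lungs.

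Resident alveolar macrophages are seeded into the lung around birth and live on the inner face of the air sacs, where they take up particles, microbes and spent surfactant. GM-CSF, a cytokine made largely by alveolar type 2 cells, induces the transcription factor PPARG in them, and PPARG in turn drives their lipid handling genes. After lung injury, macrophages that derive from monocytes enter the same space and express these genes at lower levels at first. In whole lung RNA, fewer alveolar macrophages and less RNA of a gene per macrophage cannot be told apart.

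Each library held between 18157161 and 26365969 counted reads. Levels are given as CPM, the read count relative to the TMM-scaled library size, and the groups were compared with edgeR's quasi-likelihood test. A gene is said to have risen or fallen, or to be called, when its unadjusted P was below 0.05 and its fold change above 1.5, the thresholds of the study. At these thresholds 1098 of all tested genes (6.29%) were called, 504 of them lower in BLM+HBO (2.89%) and 594 higher (3.40%). Whatever their P, 48.8% of all tested genes had a negative log2 fold change. The number of called genes changed with single mice, to 706 with BLM 1 removed, 659 with BLM+HBO 1 removed and 1914 with BLM+HBO 2 removed. Once P was adjusted by the Benjamini-Hochberg method over all tested genes edgeR called 0 genes at an adjusted P below 0.05, while 1861 (10.7%) had an unadjusted P below 0.05. DESeq2, run on 32868 genes without that filter on low counts, called 151 after adjustment. Its default adjustment applies its own filter on mean count. Every gene called below had an adjusted P of at least 0.423 by edgeR. BLM+HBO 2 lay nearest to the BLM mice. Its chi-square per gene against BLM 4 was 13, and the lowest value between mice of 1 group was 22.1.

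The 9 genes did not move as a block. Marco, Chil3 and Fabp4 fell in BLM+HBO, Krt79 and Ear1 rose, and Pparg, Siglecf, Atp6v0d2 and Ear2 did not pass the thresholds. The 3 genes that fell and the 2 that rose stand beside the 2.89% and 3.40% of all tested genes called in those directions. The 9 genes were chosen with earlier results of these data known. The counts in this paragraph are therefore no independent comparison with all tested genes. The median log2 fold change of the 9 genes was 0.03, beside 0.007 over all tested genes. The values of BLM and BLM+HBO mice were fully separated for 3 of the 9 genes (2 lower and 1 higher in BLM+HBO), as they were for 8.77% of all tested genes (4.72% lower and 4.05% higher). No gene of the 9 passed after adjustment by edgeR, with adjusted P between 0.423 and 0.954. Without BLM 1, BLM 2 or BLM 4, 3 of the 9 genes were called in each fit, and without BLM+HBO 3 Marco alone was called.

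The promoters of 4 of the genes are printed to show what lies in front of the gene with the largest fall and how alike a pair of related genes are. They are the 250 bases before the start site, from RefSeq on GRCm38.p6, where 7 of the 9 genes had an entry. Each is written 5′ to 3′ on the strand of its gene, and capitals mark a match to a motif. Marco lies at chr1:120505025-120505274 on the minus strand, Siglecf at chr7:43351091-43351340 on the plus strand, Ear1 at chr14:43819640-43819889 on the minus strand and Ear2 at chr14:44102404-44102653 on the plus strand.
Marco: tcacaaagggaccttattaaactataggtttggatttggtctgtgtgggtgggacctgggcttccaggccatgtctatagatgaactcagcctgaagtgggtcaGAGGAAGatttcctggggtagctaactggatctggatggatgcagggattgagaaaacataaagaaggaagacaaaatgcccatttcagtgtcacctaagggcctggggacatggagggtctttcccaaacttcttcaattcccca
Siglecf: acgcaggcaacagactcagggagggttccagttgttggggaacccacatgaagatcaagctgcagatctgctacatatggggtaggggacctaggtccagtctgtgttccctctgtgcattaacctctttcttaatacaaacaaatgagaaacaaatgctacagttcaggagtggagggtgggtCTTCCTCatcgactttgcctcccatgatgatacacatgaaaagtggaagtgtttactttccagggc
Ear1: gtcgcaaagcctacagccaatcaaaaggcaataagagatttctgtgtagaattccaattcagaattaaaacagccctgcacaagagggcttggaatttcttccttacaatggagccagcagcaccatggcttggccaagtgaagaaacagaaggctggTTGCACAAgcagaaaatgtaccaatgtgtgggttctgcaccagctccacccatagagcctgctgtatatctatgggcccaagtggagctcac
Ear2: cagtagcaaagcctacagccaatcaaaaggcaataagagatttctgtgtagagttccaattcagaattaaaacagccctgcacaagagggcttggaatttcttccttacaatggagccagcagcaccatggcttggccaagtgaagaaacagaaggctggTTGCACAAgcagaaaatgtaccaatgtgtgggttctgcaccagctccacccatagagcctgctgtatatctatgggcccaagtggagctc

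The motifs reported here, searched on both strands, were GAGGAAG for PU.1, the factor that macrophages need to form, TTGCNNAA for C/EBP factors, AGGTCA for the core site of nuclear receptors such as PPARG and TGANTCA for AP-1. The capitals in Marco and Siglecf mark the PU.1 letters, 146 bases before the start of Marco and, on the opposite strand, 66 bases before the start of Siglecf. In Ear1 and Ear2 they mark the C/EBP letters, at 92 and 90 bases before the start. None of these matches overlapped another motif. Of 32851 mouse promoters of this length, 10.6% held the PU.1 letters, 9.6% the C/EBP letters, 14.0% the core site and 6.7% the AP-1 letters. The 7 genes with an entry had 9 promoter entries. Of these, 2 held the PU.1 letters, 3 the C/EBP letters (Pparg, Ear1 and Ear2), 2 the core site (Pparg only) and 0 the AP-1 letters. Both genes with the PU.1 letters are printed above, and of these Marco fell in BLM+HBO while Siglecf did not pass. Ear1 and Ear2 aligned over 248 of the 250 bases with 246 identical, so that they differed at 2 bases there.

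Ear1 and Ear2 are also close in their coding sequence, which matters for how far their counts can be separated. The coding sequences are 468 and 471 bases long and 95.1% identical, with 20 mismatched bases and a longest identical run of 96 bases. The stretch of 120 coding bases printed next, bases 51 to 170 of each, holds 8 of the differences, shown in capitals. It lies at chr14:43819240-43819359 on the minus strand for Ear1 and at chr14:44102937-44103056 on the plus strand for Ear2 (GRCm38).
Ear1 coding: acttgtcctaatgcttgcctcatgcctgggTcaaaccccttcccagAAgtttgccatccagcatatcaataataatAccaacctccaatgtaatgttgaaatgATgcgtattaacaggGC
Ear2 coding: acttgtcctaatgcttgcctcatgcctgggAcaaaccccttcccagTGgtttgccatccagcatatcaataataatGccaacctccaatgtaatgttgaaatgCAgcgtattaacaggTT
Of the windows of 150 bases along their transcripts, 5.7% for Ear1 were also present in Ear-ps9, a neighbouring pseudogene, and 6.3% for Ear2 in Ear10. No window was shared between Ear1 and Ear2, and none of the other 7 genes shared a window with any gene. Reads that map to several places were left out of the counts, so the levels of Ear1 and Ear2 may miss reads from such stretches. The windows were searched in annotated transcripts only, and the number of reads missed was not tested.

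Levels can be compared between the genes only per exon length. The mean over the 7 mice was 483 CPM per kilobase for Chil3, 82.7 for Ear2, 26.9 for Atp6v0d2, 11.3 for Marco and 4.61 for Ear1. It was 4.03 for Pparg, 2.94 for Fabp4, 2.41 for Siglecf and 0.474 for Krt79. The ranges of Chil3, Ear2 and Atp6v0d2 over the mice did not overlap, and each later neighbour in this order, from Atp6v0d2 and Marco to Siglecf and Krt79, overlapped with the next. The places of Fabp4, Ear1 and Pparg depend on the length used. The exon length of 4489 bases in the table holds more than its messenger RNA of 896 bases, and per kilobase of that transcript Fabp4 reached 14.8 CPM and stood above Marco with 11.3. On that scale Pparg with 5.60 stood above Ear1 with 4.71.

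**Figure D1:**
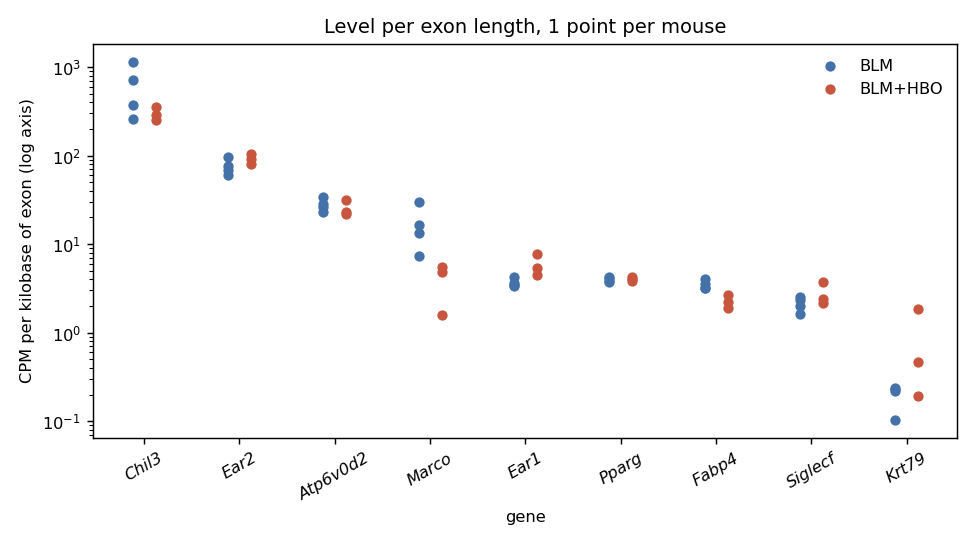
Level of the 9 genes as CPM per kilobase of exon on a log axis, with 1 point per mouse (blue BLM, red BLM+HBO), ordered by the mean over all 7 mice. Chil3 stands highest with 252 to 1140 and Krt79 lowest with 0.104 to 1.86.

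Marco (encoding a scavenger receptor that binds bacteria and particles, chr1:120474538-120505024) had the lowest P of the 9 genes. It stood at 25.5, 57.7, 14.1 and 32.0 CPM in BLM 1 to 4, and at 3.03, 10.6 and 9.45 CPM in BLM+HBO 1 to 3. Each BLM+HBO mouse lay below each BLM mouse. The means were 32.3 ± 18.5 CPM (SD, n = 4) and 7.69 ± 4.07 CPM (SD, n = 3). Marco was 4.18-fold lower in BLM+HBO, with a log2 fold change of -2.06 (SE 0.51, adjusted P = 0.423 by edgeR). Marco was called in each of the 7 fits that left out 1 mouse, with log2 fold changes from -2.35 to -1.63. The exact two-sided permutation test on log2 CPM, whose smallest P over the 35 splits of the mice is 0.0286, gave 0.0571.

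**Figure D2:**
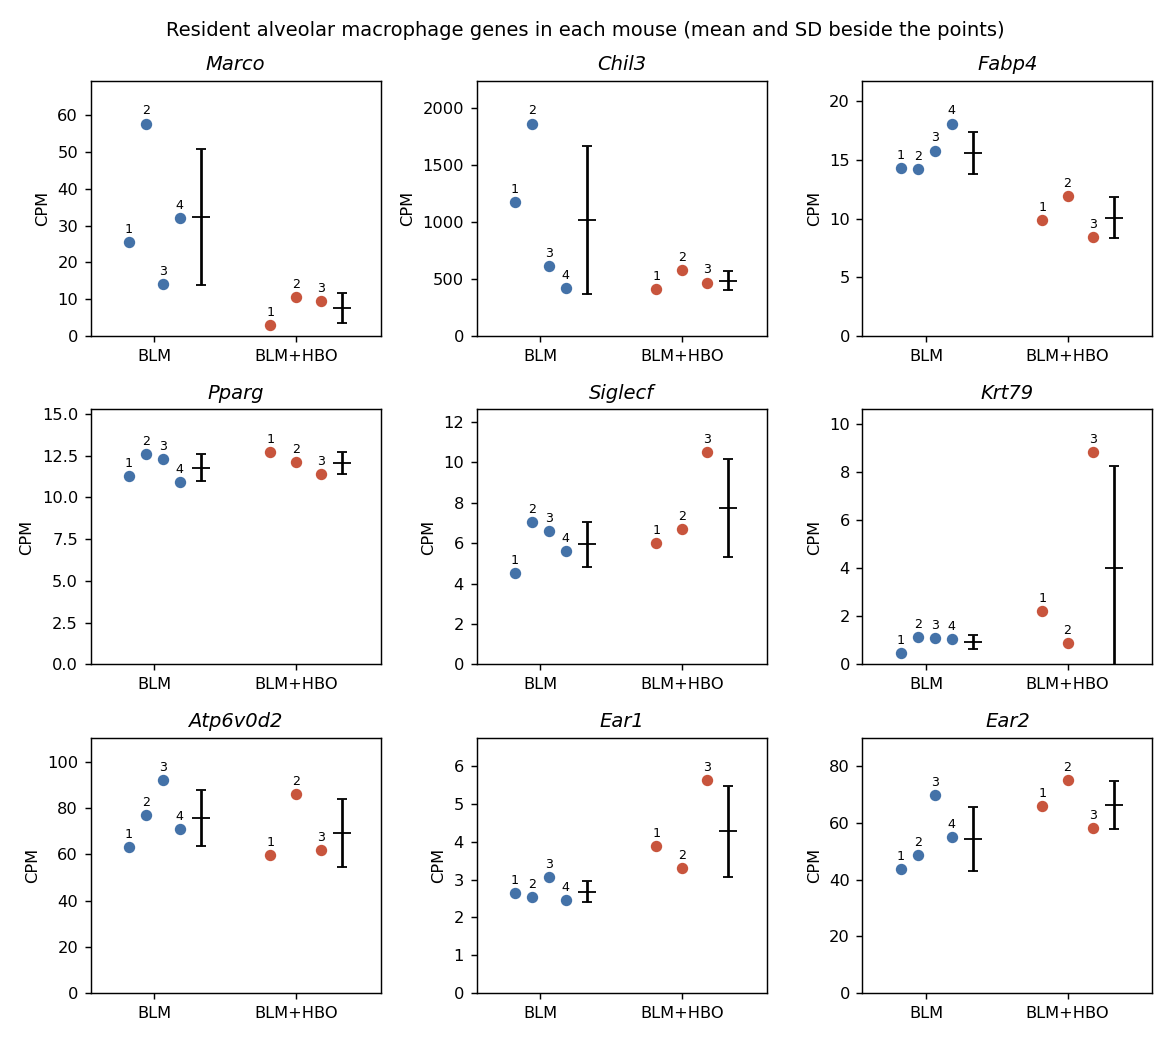
CPM of each of the 9 genes in each mouse (numbered points, blue BLM and red BLM+HBO), with the group mean and SD in black beside the points and each axis starting at 0. The groups do not overlap for Marco and Fabp4, which were lower in BLM+HBO, nor for Ear1, which was higher, and the SD of Krt79 in BLM+HBO reaches below 0 because of BLM+HBO 3.

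Chil3 (encoding chitinase-like protein 3, also known as Ym1, a secreted lectin without chitinase activity, chr3:106147554-106167564) was the most abundant of the 9 genes. It stood at 1170, 1860, 613 and 418 CPM in BLM 1 to 4 and at 411, 578 and 468 CPM in BLM+HBO 1 to 3. BLM 1 and BLM 2 stood above all other mice, while BLM 3 and BLM 4 lay close to or among the BLM+HBO mice. The means were 1010 ± 645 CPM (SD, n = 4) and 486 ± 84.9 CPM (SD, n = 3). Chil3 was 2.09-fold lower, with a log2 fold change of -1.06 (SE 0.44, adjusted P = 0.453 by edgeR), and the exact permutation test gave P = 0.257. The call was lost when BLM 1 (log2 fold change -0.99), BLM 2 (-0.60), BLM+HBO 1 (-0.96) or BLM+HBO 3 (-1.04) was left out, and with DESeq2 (-1.07). Chil3 made up 68.1% to 89.4% of the summed CPM of the 9 genes in a mouse, so any sum over them follows Chil3. Without Chil3 the other 8 genes summed to 166, 221, 215 and 196 CPM in BLM 1 to 4 and to 163, 206 and 174 CPM in BLM+HBO 1 to 3, and the groups overlapped.

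Pparg and Fabp4, the regulator of the lipid programme and a fatty acid carrier that PPARG is known to induce, differed from each other. Pparg (chr6:115360951-115490399) stood at 11.3, 12.6, 12.3 and 10.9 CPM in BLM 1 to 4 and at 12.7, 12.1 and 11.4 CPM in BLM+HBO 1 to 3. These ranges overlap almost whole. The log2 fold change of Pparg was 0.03 with a 95% interval from -0.29 to 0.35 (adjusted P = 0.954 by edgeR), an interval that ends short of the 1.5-fold threshold on either side. Its sign turned without BLM 4 (-0.0025) and without BLM+HBO 1 (-0.0084).

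Fabp4 (chr3:10204088-10208576) stood at 14.3, 14.2, 15.8 and 18.1 CPM in BLM 1 to 4 and at 9.90, 11.9 and 8.47 CPM in BLM+HBO 1 to 3. Each BLM+HBO mouse lay below each BLM mouse, and the spread within the groups was narrow. The means were 15.6 ± 1.81 CPM (SD, n = 4) and 10.1 ± 1.70 CPM (SD, n = 3). Fabp4 was 1.55-fold lower, with a log2 fold change of -0.63 (SE 0.17, adjusted P = 0.423 by edgeR). Its fold change slipped under 1.5 without BLM 4 (-0.55) and without BLM+HBO 3 (-0.52). The exact permutation test gave P = 0.0286, the smallest it can give. Fabp4 is also a gene of adipocytes and of capillary endothelium. Of 10 adipocyte genes 6 were tested and 0 were called, as were 0 of 10 capillary endothelium genes, and summed these lists ranged from 53.4 to 84.7 CPM and 2580 to 3270 CPM in BLM and from 52.4 to 78.7 CPM and 2670 to 3670 CPM in BLM+HBO. Lipe (encoding hormone-sensitive lipase) and Cdh5 (encoding VE-cadherin), the most abundant of each list, had log2 fold changes of -0.19 and 0.14. The lists themselves lay above 0, with 5 of 6 adipocyte genes and 10 of 10 capillary endothelium genes positive and medians of 0.39 and 0.27. With a mouse left out, the adipocyte count was 1 for BLM 3 and for BLM+HBO 2, and the capillary count was 2 for BLM 4 and 1 for BLM+HBO 2. Lipe alone stood at 46.9 to 77.5 CPM in BLM and at 42.2 to 61.9 CPM in BLM+HBO, so the adipocyte sum follows Lipe. The adipokine gene Lep had 1 read in all 7 mice together. The part of these cells in the level of Fabp4 was not tested.

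Siglecf (encoding a sialic acid binding receptor found on alveolar macrophages and eosinophils, chr7:43351341-43359531) stood at 4.52, 7.04, 6.59 and 5.63 CPM in BLM 1 to 4 and at 6.02, 6.70 and 10.5 CPM in BLM+HBO 1 to 3. The groups overlapped, and BLM+HBO 3 stood alone at the top. Its log2 fold change was 0.38 with a 95% interval from -0.19 to 0.96 (adjusted P = 0.615 by edgeR), so neither no change nor a rise of more than 1.5-fold lay outside the interval. The eosinophil genes, which would share Siglecf and the Ear genes, were low. Summed they came to 3.79 to 11.1 CPM in BLM and 2.96 to 6.28 CPM in BLM+HBO. Epx (encoding eosinophil peroxidase) had 15 reads in all 7 mice together. Prg2 (encoding the major basic protein of eosinophil granules) fell, with a log2 fold change of -0.97 (SE 0.36), and was the only 1 of 4 tested eosinophil genes called. No eosinophil gene was called when BLM 1, BLM+HBO 1 or BLM+HBO 3 was left out. The part of eosinophils in the levels of Siglecf, Ear1 and Ear2 was not tested.

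Atp6v0d2 (encoding a subunit of the V-ATPase, the proton pump that acidifies lysosomes, chr4:19876841-19922605) stood at 63.1, 76.9, 92.0 and 71.1 CPM in BLM 1 to 4 and at 59.8, 86.0 and 61.9 CPM in BLM+HBO 1 to 3. Mice of both groups were mixed in order. Its log2 fold change was -0.13 with a 95% interval from -0.50 to 0.24 (adjusted P = 0.811 by edgeR). Of the 17 other V-ATPase genes, 0 were called, with a median log2 fold change of -0.10 and 15 of them lower in BLM+HBO. The most abundant, Atp6ap1, had a log2 fold change of -0.08.

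Krt79 (encoding a type II keratin, chr15:101929332-101940324) was the least abundant of the 9 genes and rested on 1 mouse. It stood at 0.496, 1.13, 1.10 and 1.05 CPM in BLM 1 to 4 and at 2.24, 0.909 and 8.85 CPM in BLM+HBO 1 to 3. BLM+HBO 3 stood far above all other mice, and BLM+HBO 2 lay among the BLM mice. The means were 0.943 ± 0.300 CPM (SD, n = 4) and 4.00 ± 4.25 CPM (SD, n = 3). Krt79 was 4.25-fold higher, with a log2 fold change of 2.09 (SE 0.67, adjusted P = 0.423 by edgeR), which dropped to 0.72 (SE 0.51) and lost its call without BLM+HBO 3. The exact permutation test on log2 CPM gave P = 0.114. Of the other keratins, 9 were tested and all 9 had negative log2 fold changes, with a median of -0.34. Among these, Krt14 and Krt5 (encoding keratins of basal epithelial cells) fell, with log2 fold changes of -2.44 (SE 0.87) and -2.27 (SE 0.86). Both were low. Krt5 stood at 0.22 to 2.03 CPM in BLM and at 0 to 0.479 CPM in BLM+HBO, with overlap. Krt14 stood at 2.37 CPM in BLM 4 and at 2.3 CPM in BLM+HBO 2. Of the keratins, 1 was called when BLM 2, BLM 3, BLM 4 or BLM+HBO 1 was left out, and 0 without BLM+HBO 3.

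Ear1 and Ear2 (encoding eosinophil-associated ribonucleases, chr14:43818765-43875517 and chr14:44102654-44103534) are the pair of related genes whose sequences are printed above. Ear1 stood at 2.64, 2.54, 3.07 and 2.47 CPM in BLM 1 to 4 and at 3.89, 3.30 and 5.62 CPM in BLM+HBO 1 to 3. Each BLM+HBO mouse lay above each BLM mouse. The log2 fold change of Ear1 was 0.67 (SE 0.26, adjusted P = 0.440 by edgeR), or 1.59-fold higher, and the exact permutation test gave P = 0.0286. The call was lost when BLM 1 (0.67), BLM 2 (0.65), BLM 4 (0.64) or BLM+HBO 3 (0.42) was left out.

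Ear2 was the more abundant of the pair. It stood at 43.8, 48.8, 69.7 and 54.9 CPM in BLM 1 to 4 and at 65.9, 75.0 and 58.2 CPM in BLM+HBO 1 to 3. The 3 BLM+HBO mice all stood above BLM 1, BLM 2 and BLM 4, and BLM 3 lay among them. The log2 fold change of Ear2 was 0.29 with a 95% interval from -0.08 to 0.65 (adjusted P = 0.553 by edgeR).

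The share of Ear1 in the reads of both genes is a ratio within a library, free of depth and of the number of macrophages where both genes are read from the same cells. It was 5.69%, 4.94%, 4.22% and 4.31% in BLM 1 to 4 and 5.57%, 4.22% and 8.82% in BLM+HBO 1 to 3. BLM+HBO 3 stood above the rest, with an exact binomial 95% interval from 7.51% to 10.3% on 150 Ear1 reads, and the other mice overlapped in their intervals. The means were 4.79% ± 0.681 (SD, n = 4) and 6.20% ± 2.36 (SD, n = 3). The difference of 1.41 percentage points gave P = 0.371 by exact two-sided permutation, and it was 0.101 percentage points without BLM+HBO 3.

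**Figure D3:**
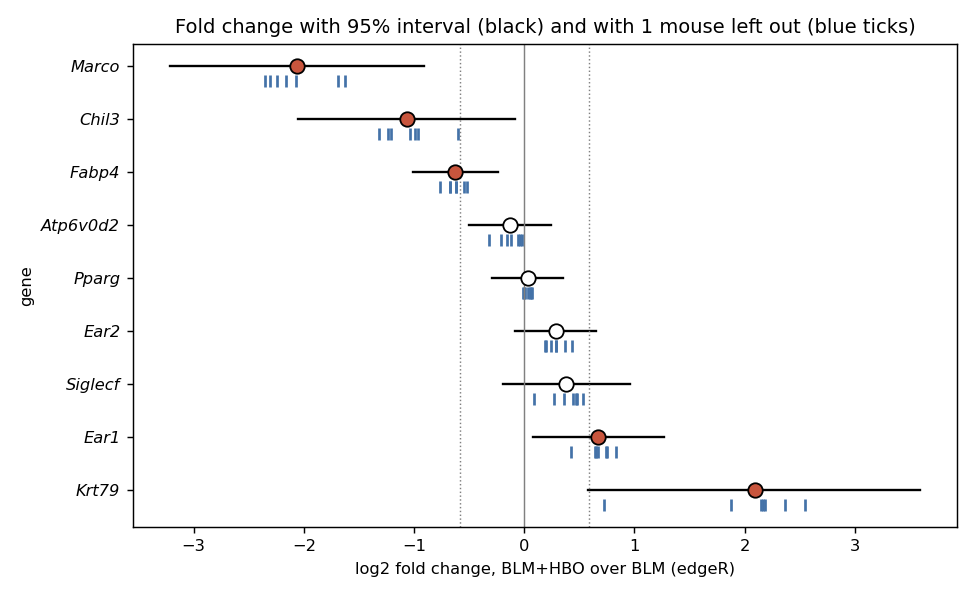
Log2 fold change of BLM+HBO over BLM for each gene by edgeR (points, filled red where the gene passed both thresholds) with its 95% interval (black), and below each point the values with 1 mouse left out (blue ticks). Dotted lines mark a fold change of 1.5. Marco stays between -2.35 and -1.63 with any mouse left out, and Krt79 drops to 0.72 without BLM+HBO 3.

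Marco separated the groups by itself, and it also did so set against Ear2, a gene of the list that did not pass the thresholds. Ear2 was itself higher in BLM+HBO, with a log2 fold change of 0.29, which widens the gap in this ratio. The ratio is therefore no measure of Marco per macrophage. The ratio of Marco to Ear2 CPM was 0.582, 1.18, 0.202 and 0.582 in BLM 1 to 4 and 0.0460, 0.141 and 0.162 in BLM+HBO 1 to 3, without overlap. The ratio of Chil3 to Ear2 was 26.7, 38.0, 8.79 and 7.61 in BLM 1 to 4 and 6.24, 7.71 and 8.04 in BLM+HBO 1 to 3. BLM 1 and BLM 2 stood apart in that ratio, and BLM 3 and BLM 4 lay near the BLM+HBO mice. These ratios were chosen after the values were seen and carry no test.

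**Figure D4:**
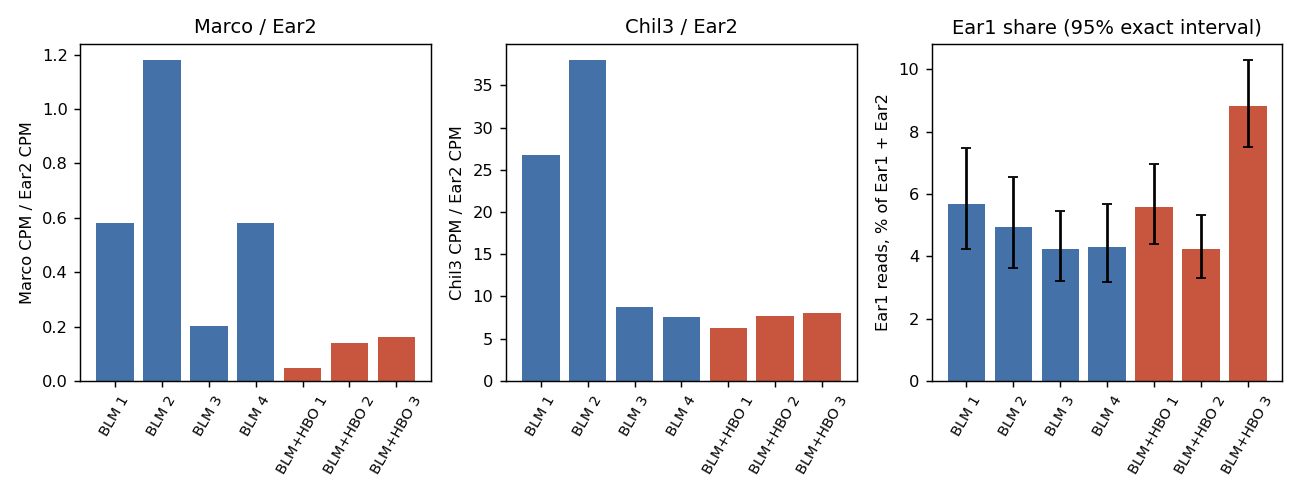
Ratio of Marco to Ear2 CPM, ratio of Chil3 to Ear2 CPM and share of Ear1 in the reads of Ear1 and Ear2, with 1 bar per mouse (blue BLM, red BLM+HBO) from 0 and exact binomial 95% intervals on the share, which cover counting error only. Marco to Ear2 is at most 0.162 in BLM+HBO and at least 0.202 in BLM, and the Ear1 share reaches 8.82% in BLM+HBO 3.

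No single order of the mice held for all 9 genes. BLM+HBO 3 was the highest mouse for 3 of them (Siglecf, Krt79 and Ear1) and the lowest for Fabp4. BLM 1 was the lowest for 3 (Siglecf, Krt79 and Ear2), and BLM 2 the highest for Marco and Chil3. BLM+HBO 1 was the lowest for Marco, Chil3 and Atp6v0d2 and the highest for Pparg.

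The genes most like the average of the 9 were found by the correlation of their log2 CPM with the mean of the standardized log2 CPM of the 9 genes over the 7 mice, among 12565 genes. The highest Pearson r was 0.989 for Fzd5 (encoding a Wnt receptor), followed by 0.979 for Sdhaf4, 0.954 for Ppm1m, 0.942 for Commd6 and 0.939 for Inhbb. All 5 were flat between the groups, with log2 fold changes from -0.01 to 0.04. With 7 mice and this many candidates these r values describe the libraries only.

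Of 12 other genes known from resident alveolar macrophages, Mrc1 (encoding the mannose receptor CD206) was the 1 gene called, beside 6.29% of all tested genes. It stood at 321, 224, 195 and 171 CPM in BLM 1 to 4 and at 100, 172 and 110 CPM in BLM+HBO 1 to 3, and BLM+HBO 2 lay level with BLM 4. Mrc1 had a log2 fold change of -0.84 (SE 0.25). The median of the list was -0.16, and 2 genes were called without BLM 4 and 3 without BLM+HBO 2.

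On the GM-CSF axis 0 of 8 genes were called, with a median log2 fold change of -0.11. Csf2rb (encoding the shared beta chain of the GM-CSF receptor) had a log2 fold change of -0.17 (adjusted P = 0.775 by edgeR). The ligand gene Csf2, named after its values were seen, was near the lower limit of detection with a mean of 1.29 CPM (SD 0.513) over the BLM mice and 0.991 CPM (SD 0.572) over the BLM+HBO mice.

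Among 9 transcription factors of alveolar macrophages, Egr2 fell, with a log2 fold change of -0.65 (SE 0.26), and the median was -0.06. Egr2 stood at 28.1, 19.3, 24.7 and 36.9 CPM in BLM 1 to 4 and at 13.3, 24.0 and 14.7 CPM in BLM+HBO 1 to 3, with BLM+HBO 2 among the BLM mice. It was not called when BLM 4, BLM+HBO 1 or BLM+HBO 3 was left out, which left 0 genes called in the list.

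Of 12 tested genes of lipid uptake, storage and efflux, many of them PPARG targets, 2 fell and 0 rose, with a median log2 fold change of -0.15. Angptl4 (encoding an inhibitor of lipoprotein lipase and a PPAR target) stood at 68.8, 63.7, 86.9 and 98.2 CPM in BLM 1 to 4 and at 39.4, 60.1 and 47.5 CPM in BLM+HBO 1 to 3, without overlap. Its log2 fold change was -0.70 (SE 0.19). Apoe (encoding apolipoprotein E) had a log2 fold change of -0.91 (SE 0.30). The list gave 1 call with BLM 4 removed, 0 with BLM+HBO 1 removed and 5 with BLM+HBO 2 removed.

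The relatives of the 9 genes moved in different directions. Of 9 other scavenger receptors all 9 had negative log2 fold changes, beside 48.8% of all tested genes. Those that fell were 2, Msr1 (encoding macrophage scavenger receptor 1, -1.31, SE 0.35) and Cd163 (encoding the haemoglobin scavenger receptor, -1.51, SE 0.49). Msr1 stood at 101, 64.1, 57.4 and 51.8 CPM in BLM 1 to 4 and at 20.6, 45.2 and 17.5 CPM in BLM+HBO 1 to 3, and like Marco it did not overlap between the groups. Of 3 tested relatives of Chil3, Chia1 (encoding acidic mammalian chitinase) rose, with a log2 fold change of 1.18 (SE 0.35). Of 6 tested relatives of Siglecf, Siglecg (a Siglec of B cells, 1.08, SE 0.22) and Siglech (a Siglec of plasmacytoid dendritic cells, 1.29, SE 0.53) rose. That count was 1 when BLM 1, BLM 2, BLM 3 or BLM+HBO 1 was left out and 4 without BLM+HBO 2. Of 5 tested relatives of the Ear genes, Rnase6 rose (0.83, SE 0.30), and none was called without BLM 1 or BLM+HBO 1.

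**Figure D5:**
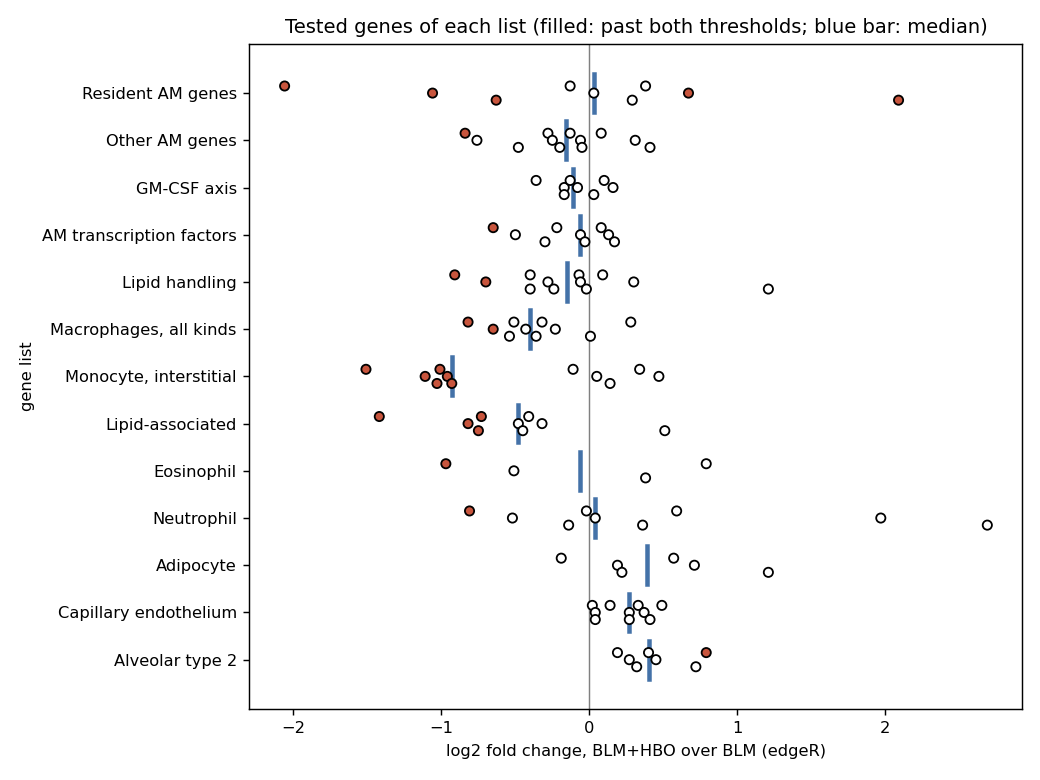
Log2 fold change of BLM+HBO over BLM by edgeR for each tested gene of the 9 resident alveolar macrophage (AM) genes and of 12 other lists, filled red where the gene passed both thresholds, with the median of each list as a blue bar. The 9 genes spread from -2.06 to 2.09 around a median of 0.03, and the median of the monocyte and interstitial macrophage genes is -0.93.

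Genes of other macrophages were mostly lower in BLM+HBO. Of 11 genes of monocytes and interstitial macrophages 6 fell and 0 rose, with a median log2 fold change of -0.93, and the count was 5 or 6 with any mouse left out. Among these were the complement genes C1qc (-1.11, SE 0.30), C1qb (-0.96, SE 0.28) and C1qa (-1.01, SE 0.29), Cd163 and Folr2. Cd163 is also counted among the scavenger receptors above. The monocyte genes of the list, Ccr2, Ly6c2 and Plac8, were not called and had positive log2 fold changes of 0.05, 0.47 and 0.34. Lyve1 was also positive with 0.14. The median of the list therefore does not describe its monocyte genes. Of 9 genes of lipid-associated macrophages 4 fell (Trem2, Ctsk, Spp1 and Mmp14), with a median of -0.48, and 7 were called without BLM+HBO 2. Spp1 (encoding osteopontin) had the lowest fold change of that list, with -1.42 (SE 0.44). Of 10 genes of macrophages of all kinds, Adgre1 (encoding F4/80, -0.65, SE 0.23) and Fcgr1 (encoding CD64, -0.82, SE 0.26) fell, with a median of -0.40. That count was 1 without BLM 1 or BLM+HBO 1, 5 without BLM+HBO 2 and 0 without BLM+HBO 3. Whether the 9 genes differ from these lists was not tested.

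Markers of other cells moved between the groups as well. Neutrophils can express Chil3. Of 9 tested neutrophil genes 4 were lower and 5 higher in BLM+HBO, with a median of 0.04. Ltf (encoding lactoferrin) was the only 1 called and fell (-0.81, SE 0.17), against the direction of those 5. The summed levels of the neutrophil list were 305 to 395 CPM in BLM and 196 to 636 CPM in BLM+HBO. The neutrophil count was 3 with either BLM 3 or BLM+HBO 2 removed and 7 with BLM+HBO 1 removed. Alveolar type 2 cells can express Pparg, and of their 7 genes Sftpa1 (encoding surfactant protein A) rose (0.79, SE 0.31), with a median of 0.40 and summed levels of 8830 to 16200 CPM in BLM and 11200 to 27700 CPM in BLM+HBO. Sftpa1 lost its call when BLM 1, BLM 3, BLM+HBO 1 or BLM+HBO 3 was left out, and 4 genes of that list were called without BLM+HBO 2. Of 9 heart muscle genes 8 rose, with a median of 1.73 and summed levels of 60.1 to 174 CPM in BLM and 153 to 650 CPM in BLM+HBO, and 5 rose without BLM+HBO 1. Of 7 genes of T and B cells 3 rose, among them Ms4a1 and Cd79a of B cells, with 1 called without BLM+HBO 1 and 5 without BLM+HBO 3. Of 5 genes of dividing cells Ccnb1 fell (-0.66, SE 0.28), with 0 calls when BLM 1, BLM 4, BLM+HBO 1 or BLM+HBO 2 was left out and 5 without BLM+HBO 3. The part of these cells in the levels of the 9 genes was not tested.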

How the data were processed

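The deposited values were raw read counts per gene in 1 table for all 7 mice. The authors prepared NEBNext Ultra libraries, sequenced paired ends, removed adapters with Trim Galore, aligned to GRCm38 (HISAT2 2.2.0 in the submitters' processing notes) and counted with featureCounts at default settings, which ignore strand and drop multi-mapping reads. Symbols came from GENCODE vM21 (55141 of 55401 genes). The members of the list and all other lists were chosen with earlier results of these data known.

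Genes were kept by filterByExpr (minimum count 10, minimum total 15), scaled by TMM (factors 0.964 to 1.04) and tested in edgeR 4.0.16 under R 4.3.3 with the quasi-likelihood test, 4 BLM against 3 BLM+HBO mice with no covariate. P-values were adjusted over all 17465 tested genes. Log2 CPM used a prior count of 2. The fits were tested on simulated data. Total counts of 18157161 to 26365969 set the counting error only, and the precision of the group comparison also rests on the spread between mice. Intervals on shares cover counting error only. Named genes were the 9 genes, in each of the 21 other lists the called genes (up to the 4 with the smallest P) or else the most abundant gene, and the 5 genes most like the average of the 9. The alternatives were DESeq2 1.42.0, limma-trend (limma 3.58.1), RLE and upper-quartile factors, robust empirical Bayes, no filter, 1 CPM in 3 mice, a replicate block, other thresholds, an exact permutation test and each mouse left out. Some items of the lists are not reported here by name.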

Additional observations from a re-analysis of the deposited data

Results flagged for a closer look

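Of 11 groups of values examined with Dixon's ratio (the gap of an extreme mouse to its neighbour over the range of the group), 2 exceeded the critical value for 4 mice, and chance gives about 1 in 20. Krt79 in BLM had a ratio of 0.914, because BLM 1 lay at -0.747 log2 CPM and the other 3 BLM mice between 0.206 and 0.296. The total count in BLM had a ratio of 0.971, because BLM 4 had 19002242 reads and the other 3 between 18436336 and 18452895. The groups of 3 BLM+HBO mice were not examined in this way, so the flags cover BLM mice only.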

How the results depend on the processing

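Marco kept its direction under all 16 alternatives and its call under 15 of them, the exception being the exact permutation test (-2.07, P = 0.0571), whose 35 splits cannot go below 0.0286. With each mouse left out in turn, the log2 fold change ranged from -2.35 to -1.63 for Marco, from -1.32 to -0.60 for Chil3, from -0.76 to -0.52 for Fabp4, from -0.0084 to 0.07 for Pparg, from 0.72 to 2.55 for Krt79 and from 0.42 to 0.83 for Ear1. Chil3 lost its call with DESeq2 (-1.07, P = 0.0559), limma-trend (-0.84, P = 0.0786), robust empirical Bayes (-1.06, P = 0.0587) and permutation (-0.84, P = 0.257), and Krt79 with permutation (1.46, P = 0.114). Siglecf, Atp6v0d2 and Ear2 kept their direction and stayed uncalled under all 16 alternatives, and the difference in Ear1 share ranged from 0.101 to 2.40 percentage points with a mouse left out. Pparg turned sign without BLM 4 (-0.0025) and without BLM+HBO 1 (-0.0084). The cause was not tested. Of the 9 genes, 3 were called at a fold change above 2, 2 at P below 0.01 and between 1 and 5 with a mouse left out. Of all tested genes 1098 became 1940 with no filter on low counts, 509 at a fold change above 2, 319 at P below 0.01 and 659 to 1914 with a mouse left out. With no filter, 3 of the 9 genes had an adjusted P below 0.05 by edgeR (Marco 0.000461, Chil3 0.0439 and Krt79 0.0229), and DESeq2 gave 0 of the 9. The log2 fold changes of Marco, Chil3 and Krt79 without the filter, -2.07, -1.07 and 2.09, hardly moved. Their SE went from 0.51, 0.44 and 0.67 to 0.32, 0.28 and 0.49, so the lower adjusted P came with the setting and not with a larger difference. The count over all genes after adjustment was 0 with edgeR, 387 with edgeR and no filter, 267 without BLM+HBO 2 and 2 without BLM+HBO 3. It was 151 with DESeq2 (32868 genes, without the edgeR filter but with its own default filter on mean count).

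Mice with the same replicate number did not deviate together (correlation -0.008, -0.07 and 0.16), so the numbers were not taken as pairs. With the replicate block 3 of the 9 genes were called, with Fabp4 at -0.56, Ear1 at 0.61 and Pparg at -0.0033, and 1258 of all tested genes.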

Other observations

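The genes that followed Marco and Krt79 singly over the 7 mice were looked up after the values were seen. Vwf (encoding von Willebrand factor) had the highest Pearson r to Marco, 0.989, followed by Nlrx1 (0.979), Capn5 (0.970), Actr1a (0.965) and Pip5k1c (0.964). Vwf stood at 1010, 1110, 915 and 1010 CPM in BLM 1 to 4 and at 643, 839 and 798 CPM in BLM+HBO 1 to 3, in the same order of mice as Marco. Its log2 fold change was -0.41 (edgeR). Megf6 had the highest r to Krt79, 0.989, followed by Nrarp (0.982), Phf24 (0.979), Irx5 (0.976) and Myo5c (0.974). Nrarp (encoding a regulator of Notch signalling) stood at 11.6, 13.7, 13.6 and 12.1 CPM in BLM 1 to 4 and at 17.3, 13.2 and 27.5 CPM in BLM+HBO 1 to 3, again highest in BLM+HBO 3. All 7 mice enter these correlations, and they carry no test.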
